A study of Mus musculus with 12 samples.

Results

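The genes described here run the cell division cycle: 20 genes that license, start and copy DNA or supply its building blocks, 4 regulators of the passage from G1 into S phase, and 21 genes of mitosis. They were chosen by name, 45 in all, and each was read from a single probe set, the brightest on average across the 12 arrays of those naming 1 gene. A probe set naming 1 gene was found for 44 of the 45, among 18194 genes read this way. Ccnb1, the B-type cyclin that activates Cdk1 at mitotic entry, was not analysed here.

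Cells were BNL CL.2, a mouse line of liver origin, cultured for 24 h in 4 groups of 3 arrays each. In the group called alone the cells faced an insert holding further BNL CL.2 cells and received no iron salt. FAC cells received 100 micromolar ferric ammonium citrate, an iron salt that loads cultured cells with iron. In RAW the insert held mouse macrophages of the line RAW 264.7 instead, and RAW_FAC combined that insert with the iron salt. All groups thus hold 1 cell line in DMEM with serum, so differences between lines or donors were not measured, and the labels do not say whether the 3 arrays of a group came from separate cultures.

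DNA replication is prepared in G1, when the origin recognition complex, Cdc6 and Cdt1 load the Mcm helicase onto DNA. In S phase Cdc45 and the GINS complex turn that helicase on, and polymerases held by the PCNA clamp copy the strands with nucleotides made by ribonucleotide reductase, whose small subunit Rrm2 holds a di-iron centre. Replication genes are controlled by E2F factors and peak around the start of S phase, while mitosis genes are controlled through CHR elements by the DREAM and MuvB complexes and peak in G2 and M. Hepatocytes of the adult liver rarely divide, whereas liver lines in culture cycle freely.

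Expression was given on the log2 scale (RMA values, in which 1 unit is a doubling), and 43 of the 44 genes lay above 6.82, the level of the median gene. The exception was Tyms, thymidylate synthase, at 5.32. Of 9 measured hepatocyte markers 4 lay above the median gene, Krt8, Krt18, Hnf4a and Afp, whereas Alb, the defining secretory product, averaged 5.19 in alone cells, below the lowest array median of 5.63. Of 15 measured macrophage markers 3 exceeded the median gene, and their mean level was 5.58 to 5.60 in alone, 5.53 to 5.64 in FAC, 5.59 to 5.67 in RAW and 5.62 to 5.65 in RAW_FAC arrays. The 3 above the median gene were Cd14 (12.03 in alone, 11.95 in RAW), Cd53 (7.47 and 7.59) and Laptm5 (6.88 and 6.91). The leukocyte marker Ptprc averaged 3.47 in alone and 3.50 in RAW cells.

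Arrays numbered 1 stood apart for these genes. For each array the median deviation of the 20 measured mitosis genes from their own means over all arrays was taken. It was 0.24 on alone number 1 and 0.19 on RAW number 1, against -0.05 to 0.05 on the other 4 arrays without iron. On FAC number 1 and RAW_FAC number 1 it was -0.15 and -0.12, against -0.10 to -0.00 on the other 4 arrays with iron. The replication genes showed 0.15 on FAC number 1 and 0.15 on RAW_FAC number 1, against -0.09 to 0.03 on the other 10 arrays. Among the 20 mitosis genes, 18 had their highest alone value on number 1, and 18 their highest RAW value on number 1. With iron the split was weaker: 13 had their lowest FAC value on number 1 and 12 their lowest RAW_FAC value. Among the 20 replication genes, 19 had their highest FAC value on number 1 and 18 their highest RAW_FAC value. Targets of p53, a list of 20 measured genes, moved with the same arrays, at 0.24 on alone number 1, 0.16 on RAW number 1, -0.20 on FAC number 1 and -0.19 on RAW_FAC number 1. Their part in the results was not tested. The main results are therefore given with all arrays and with numbers 2 and 3 only. Changes are log2 differences between means of 3 arrays a group, and ± gives limma's standard error.

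**Figure D1:**
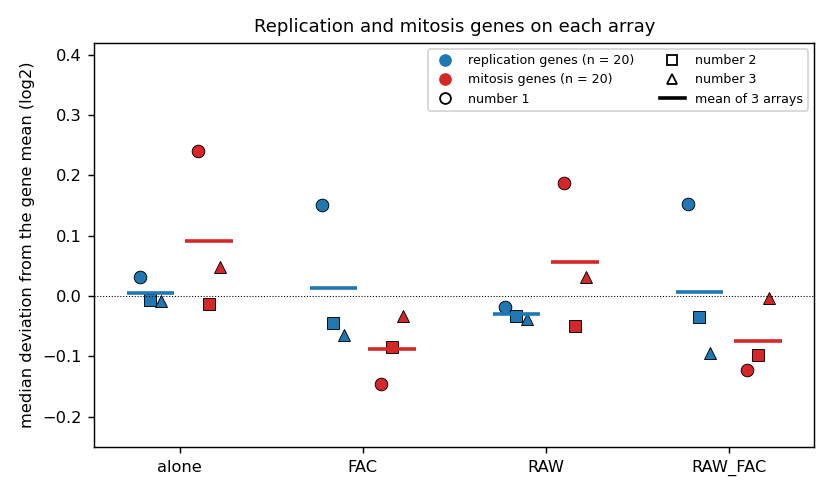
Median deviation of the 20 replication genes (blue) and 20 mitosis genes (red) from each gene's mean over 12 arrays, in log2 units, for each array of the 4 groups; symbols give the replicate number and bars the mean of 3 arrays. The number 1 arrays (circles) lie apart: mitosis genes reach 0.24 in alone and 0.19 in RAW, and replication genes 0.15 in FAC and RAW_FAC.

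With iron, the mitosis genes were lower in mean and the replication genes were not, but no gene of either kind passed the test. Averaged over the comparisons with and without macrophages, all 20 mitosis genes lay below 0, against 51.1% of all genes. They ran from -0.34 to -0.01 with a median of -0.15. The 20 replication genes ran from -0.08 to 0.24, with a median of 0.03, and the median of all genes was -0.00. In these bulk samples, fewer cells in a phase and less RNA per cell cannot be told apart. The test was limma's moderated test over all 18194 genes with Benjamini-Hochberg adjustment and a threshold of 0.05, two-sided. It called 0 of 44 genes for the average effect of iron, with a background of 0.00550% of all genes, which is the single gene Tfrc. With the replicate number as a block it again called 0 of 44, against 0.791% of all genes. The smallest adjusted p among the 44 was that of Bub1, 0.431 without the block and 0.0968 with it. Without adjustment, 9 of the 20 mitosis genes were lower at p under 0.05, against 3.22% of all genes, and 15 of 20 with the block, against 6.03%. No replication gene was lower at that level, and 1 of 20, Tyms, was higher, against 3.29% of all genes. With the block 0 were lower and 2 higher, Tyms and Mcm6, against 6.23%.

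The same-number pairs show where that split lay. In the FAC and alone arrays numbered 1, the median change was 0.11 for replication genes and -0.38 for mitosis genes, a gap of 0.49. In the number 2 pair the values were -0.04 and -0.08, and in the number 3 pair -0.05 and -0.07, leaving gaps of 0.04 and 0.02. The RAW_FAC and RAW arrays share no array with that comparison. Their number 1 pair gave 0.18 and -0.28, a gap of 0.45, and the gaps in numbers 2 and 3 were 0.06 and 0.01. The separation of replication from mitosis genes was thus large in the number 1 pairs and under 0.07 in the other 4.

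**Figure D2:**
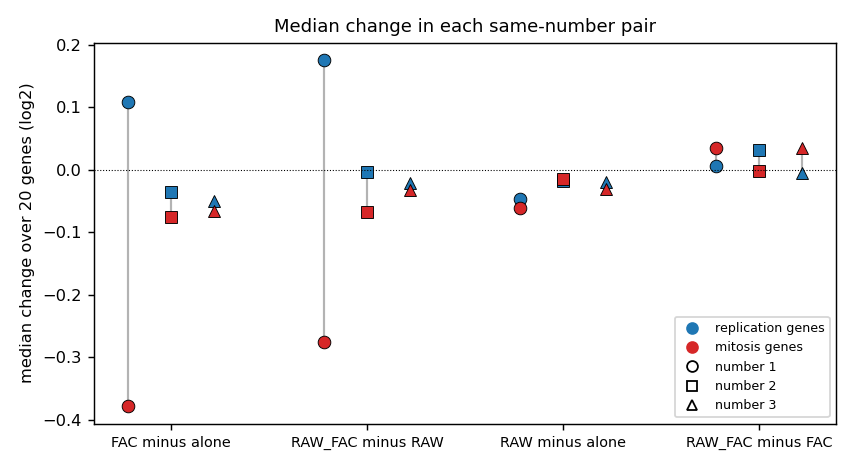
Median log2 change of the 20 replication genes (blue) and 20 mitosis genes (red) in each same-number pair of arrays, for iron (left 2 comparisons) and macrophages (right 2); a grey line joins the medians of a pair. The gap is 0.49 and 0.45 in the number 1 iron pairs and at most 0.06 in the other iron pairs.

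With arrays numbered 2 and 3 only, the average effect of iron had a median of -0.06 over the mitosis genes, and 17 of the 20 remained below 0. Over the replication genes the median was -0.03, with 15 of 20 below 0, so that it lay on the other side of 0 from the value over all arrays. The transferrin receptor Tfrc, which imports iron and whose mRNA is degraded when iron is plentiful, gives the iron response of the same arrays. Its change was -0.93, -1.16 and -1.65 in the FAC pairs 1 to 3 and -1.08, -0.99 and -1.52 in the RAW_FAC pairs 1 to 3, with a mean of -1.22 ± 0.15 (SE) and an adjusted p of 0.0398 in limma. For Tfrc the largest change lay in the number 3 pairs. Whether the gap between the 2 gene classes goes with the size of the iron response was not tested.

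Directions were also counted pair by pair, beside the same count over the 9097 genes above the median level, where 43 of the 44 lie. In FAC against alone, 16 of the 20 mitosis genes were lower in each of 3 pairs, against 19.1% of those genes. In RAW_FAC against RAW the count was 11 of 20, against 14.1%. Over the 6 pairs together 9 of 20 were lower in each, against 5.91%. Of the replication genes 3 of 20 were lower and 3 higher in every FAC pair, where 12.2% were higher. In the RAW_FAC pairs 2 were lower and 4 higher, where 19.9% were higher. In all 6 pairs 1 replication gene was lower, Rrm2, and 1 higher, Tyms, where 6.49% were higher. Mitosis genes were thus lower in every pair more often than that background, and replication genes stood near it.

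Replication and mitosis genes also differ in their promoters, which the choice of genes did not use. Windows from 250 bases before to 50 after each gene's start were taken from RefSeq (GRCm38.p6) and matched 34 of the 44 genes by symbol. The E2F words searched, on both strands, were the word TTCCCGC, the word TTCGCGC, the word TTGCCGC and the word TTGGCGC. The CHR words were TTTGAA and the variant TTCGAA, and the third kind was the CCAAT box. An E2F word was found in 13 of 17 replication promoters (76.5%) and 2 of 15 mitosis promoters (13.3%), against 9.57% of all 32851 windows and 2311 of 14453 genes of the array. A CHR word was found in 11 of 15 mitosis promoters (73.3%) and 4 of 17 replication promoters (23.5%), against 19.2% of windows. CCAAT stood in 80.0% of mitosis, 76.5% of replication and 37.4% of all windows. Within mitosis genes the iron change had a median of -0.17 in the 11 with a CHR word and -0.17 in the 4 without, which is the same at this rounding. Of the 34 matched genes, the 2 G1 and S phase regulators E2f1 and Ccne1 held no E2F, CHR or CCAAT word. A match is a description of letters, and E2F words can overlap their own reverse complement.

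**Figure D3:**
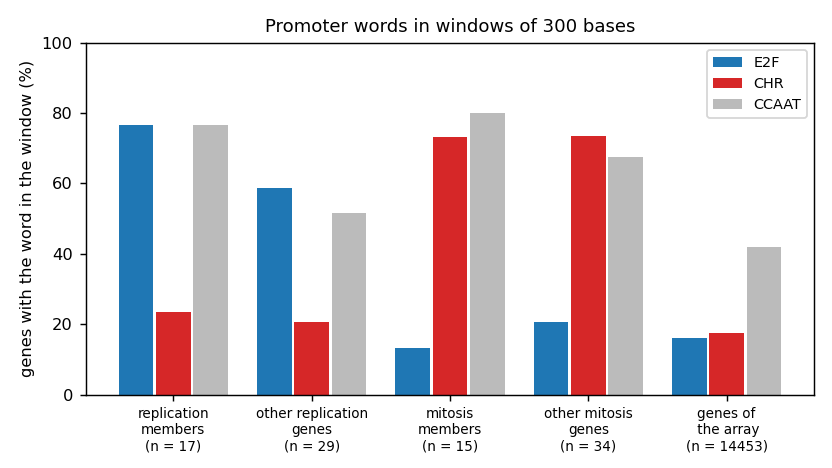
Share of genes, in percent, whose window of 300 bases around the start holds an E2F, CHR or CCAAT word on either strand, with the number of genes matched under each group. E2F words stand in 76.5% of replication promoters and CHR words in 73.3% of mitosis promoters, against 2311 and 2529 of 14453 genes on the array.

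Parts of 6 promoters are printed to show these words, from 100 bases before to 30 after the start. In each class they are the 3 genes with the smallest p for iron that hold the word there, a choice made after the values were seen. Capitals mark the word or its reverse complement. For mitosis, with a CHR word, Bub1 lies at chr2:127831830-127831959, Top2a at chr11:99024160-99024289 and Cdc20 at chr4:118437314-118437443, all on the minus strand.
Bub1: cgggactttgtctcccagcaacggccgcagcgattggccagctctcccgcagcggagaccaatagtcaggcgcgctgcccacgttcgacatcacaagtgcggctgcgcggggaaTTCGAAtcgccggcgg
Top2a: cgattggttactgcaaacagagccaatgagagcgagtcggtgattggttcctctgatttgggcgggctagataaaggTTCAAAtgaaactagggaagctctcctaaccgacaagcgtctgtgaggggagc
Cdc20: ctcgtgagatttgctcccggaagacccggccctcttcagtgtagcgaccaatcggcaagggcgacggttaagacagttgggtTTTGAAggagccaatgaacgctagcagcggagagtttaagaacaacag
In Top2a and Cdc20 the word begins 23 and 18 bases before the start, and in Bub1 15 bases after it. For replication, with an E2F word, Mcm6 lies at chr1:128359676-128359805 and Mcm7 at chr5:138171854-138171983, both on the minus strand, and Prim1 at chr10:128015115-128015244 on the plus strand.
Mcm6: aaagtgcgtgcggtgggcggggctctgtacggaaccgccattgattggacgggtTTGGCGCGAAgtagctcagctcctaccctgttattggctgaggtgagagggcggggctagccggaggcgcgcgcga
Mcm7: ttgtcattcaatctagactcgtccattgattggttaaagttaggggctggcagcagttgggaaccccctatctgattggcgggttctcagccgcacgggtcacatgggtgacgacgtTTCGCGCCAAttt
Prim1: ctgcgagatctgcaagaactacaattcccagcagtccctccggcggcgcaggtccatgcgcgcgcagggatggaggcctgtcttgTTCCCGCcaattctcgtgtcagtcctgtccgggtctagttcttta
In Mcm6 and Mcm7 the capitals hold 2 overlapping matches, 1 on each strand. Prim1 has a single word 15 bases before the start.

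Among the replication genes, the 12 that license origins or form the helicase had a median iron change of 0.04, with 9 above 0. With numbers 2 and 3 only the median was -0.02 and 3 of the 12 were above 0, Cdc6, Mcm6 and Mcm7. Mcm6, a helicase subunit, read 11.54, 11.57 and 11.61 on the alone arrays and 11.93, 11.54 and 11.58 on the FAC arrays. It read 11.46, 11.50 and 11.55 in RAW and 11.86, 11.58 and 11.64 in RAW_FAC. FAC overlapped alone, while the 3 RAW_FAC values lay above the 3 RAW values, by little outside number 1. The average change was 0.15 ± 0.07 (adjusted p = 0.776), and 0.03 with numbers 2 and 3 only. Cdc6, which loads the helicase, had a change of 0.15 ± 0.08 (adjusted p = 0.802) that came to 0.02 without number 1. It read 10.14, 10.21 and 10.07 in alone, 10.50, 10.23 and 10.08 in FAC, 10.06, 10.12 and 10.14 in RAW and 10.52, 10.28 and 10.04 in RAW_FAC. Both iron groups thus had 1 high array, number 1, and 2 that overlapped the arrays without iron or lay near them. Mcm7, another helicase subunit, differed by 0.07 ± 0.05, Mcm5 by 0.05 ± 0.05 and Mcm2 by 0.01 ± 0.07. The second Mcm2 probe set, at a mean level of 10.52, gave 0.12. Other Mcm5 probe sets gave 0.10, at a mean level of 10.43, and -0.10, at 7.41. The licensing factors Cdt1 and Orc1 had values of -0.01 ± 0.05 and -0.06 ± 0.07.

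The 5 polymerase, primase and clamp genes had a median change of -0.00, or -0.10 with numbers 2 and 3 only. Pcna, the sliding clamp, differed by 0.05 ± 0.05 and ranged over only 13.47 to 13.69 on the 12 arrays. Prim1, the primase that starts each new strand, had the lowest value of the replication genes, -0.08 ± 0.07, and -0.16 with numbers 2 and 3 only. Its number 1 pairs were above 0 and its other 4 pairs below, from -0.22 to 0.11 in all. Pola1, the polymerase that extends those primers, split its pairs the same way, with a mean of -0.03 ± 0.06. Rfc3 and Rfc4, which load the clamp, gave 0.07 ± 0.11 and -0.00 ± 0.08.

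On the chosen probe sets, ribonucleotide reductase differed little between the groups. Rrm1, its large subunit, read 12.15, 12.15 and 12.13 in alone, 12.13, 12.09 and 12.05 in FAC, 12.11, 12.11 and 12.08 in RAW and 12.15, 12.12 and 12.04 in RAW_FAC. The FAC and the RAW values each lay below the 3 alone values, by margins of 0.02 or less, while RAW_FAC overlapped all groups. Its change was -0.03 ± 0.04 (95% interval -0.11 to 0.06, adjusted p = 0.939). The other Rrm1 probe sets gave -0.10, at a mean level of 9.95, and -0.01, at a dim 3.29. The brighter of these gave -0.04 in FAC against alone and -0.17 in RAW_FAC against RAW. Rrm2, the iron-holding subunit, read 13.43, 13.43 and 13.40 in alone and 13.41, 13.31 and 13.35 in FAC. In RAW it read 13.47, 13.36 and 13.38, and in RAW_FAC 13.38, 13.30 and 13.26. FAC values overlapped those of alone, and RAW_FAC overlapped RAW. It was lower with iron in each of the 6 pairs, by little: the changes ran from -0.12 to -0.02, with a mean of -0.07 ± 0.04 (95% interval -0.17 to 0.02, adjusted p = 0.813). With numbers 2 and 3 only it was -0.08. All 3 of its probe sets were below 0, at -0.10, -0.07 and -0.04. Rrm2b, the p53-induced small subunit, gave -0.06 ± 0.06 (adjusted p = 0.896). A further list of 12 iron-dependent DNA enzymes had a median of -0.02 with 8 below 0, against 51.1% of all genes. Of the 12, 0 were called, against 0.00550% of all genes without the block and 0.791% with it.

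Tyms, which makes the thymidine nucleotide, was the only replication gene above 0 in all 6 pairs. It read 5.35, 5.28 and 5.11 in alone, 5.55, 5.29 and 5.23 in FAC, 5.45, 4.86 and 5.15 in RAW and 5.47, 5.51 and 5.57 in RAW_FAC. FAC overlapped alone, and the 3 RAW_FAC values lay above the 3 RAW values. The change was 0.24 ± 0.09 (adjusted p = 0.716), with its largest pairs, 0.65 and 0.42, in numbers 2 and 3 of RAW_FAC against RAW. These signals were dim, and the 4 probe sets of Tyms disagreed, from -0.14 to 0.24.

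The 4 G1 and S phase regulators had a median change of 0.06, or -0.02 with numbers 2 and 3 only. Ccne1 and Ccne2 are the E cyclins that drive Cdk2 at the start of S phase. Ccne1 read 9.89, 10.12 and 10.10 in alone, 10.35, 10.15 and 10.07 in FAC, 9.88, 10.15 and 9.99 in RAW and 10.42, 10.14 and 9.99 in RAW_FAC. Its number 1 arrays were the lowest in both groups without iron and the highest in both with it, and the other arrays overlapped. The average change of 0.16 ± 0.08 (adjusted p = 0.781) came to -0.00 with numbers 2 and 3 only. Ccne2 differed by 0.43 and 0.37 in the number 1 pairs and by -0.19 to -0.05 in the other 4. E2f1, a founding member of the E2F factors, gave 0.06 ± 0.07 and -0.02 without number 1. Ccnd1, the D cyclin that answers growth signals, stayed between 13.57 and 13.74 on all arrays and differed by -0.04 ± 0.04.

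**Figure D4:**
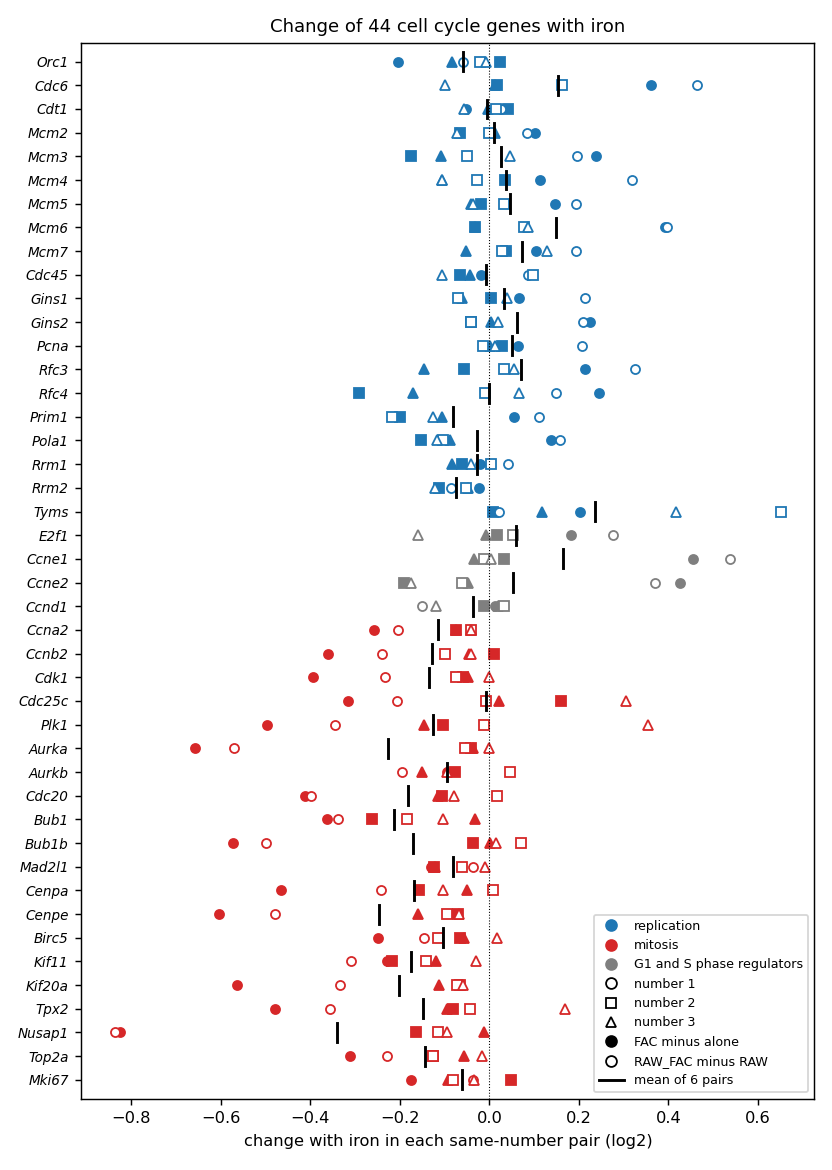
Log2 change with iron of each of the 44 genes in the 6 same-number pairs, filled for FAC minus alone and open for RAW_FAC minus RAW, with the replicate number as symbol and the mean of 6 pairs as a bar. All 20 mitosis genes (red) have a mean below 0, from -0.34 for Nusap1 to -0.01 for Cdc25c, and the number 1 pairs (circles) lie farthest out for most.

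Of the mitosis genes, the 4 of the spindle checkpoint and anaphase had a median change of -0.18, or -0.07 with numbers 2 and 3 only. Bub1, a checkpoint kinase at the kinetochore, read 11.77, 11.69 and 11.52 in alone and 11.40, 11.43 and 11.49 in FAC. It read 11.78, 11.69 and 11.65 in RAW and 11.44, 11.50 and 11.54 in RAW_FAC. Within each comparison the iron arrays lay below all arrays without iron. The change was -0.21 ± 0.05 (95% interval -0.33 to -0.10), or -13.8%, the smallest unadjusted p of the 44 genes at 0.00116. With numbers 2 and 3 only it was -0.15, and its second probe set gave -0.25. Cdc20, which activates the anaphase-promoting complex, differed by -0.18 ± 0.07 (adjusted p = 0.7) and by -0.07 without number 1. Bub1b, another checkpoint protein, gave -0.17 ± 0.10, and 0.01 without number 1. Mad2l1, which holds Cdc20 inactive, gave -0.08 ± 0.05, and -0.08 without number 1.

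The 9 kinetochore, spindle and chromosome genes had a median of -0.17, or -0.08 with numbers 2 and 3 only, and 5 of them were lower in all 6 pairs. Nusap1, which bundles spindle microtubules, read 11.45, 11.13 and 11.06 in alone and 10.63, 10.97 and 11.05 in FAC. It read 11.53, 11.14 and 11.10 in RAW and 10.70, 11.03 and 11.003 in RAW_FAC. All 6 arrays with iron lay below all 6 without, by a margin of 0.01 between the nearest, as was so for 2 of the 44 genes and 0.264% of all genes (0.291% lay above throughout, and none of the 44). The change of -0.34 ± 0.10 (-21.0%, adjusted p = 0.594) was the largest of the 44, and it was -0.10 with numbers 2 and 3 only. Cenpe, a kinetochore motor, read 10.75, 10.47 and 10.64 in alone and 10.15, 10.40 and 10.48 in FAC. In RAW it read 10.69, 10.49 and 10.60, and in RAW_FAC 10.21, 10.40 and 10.53. The highest iron array, number 3 in both groups, lay above number 2 without iron. The change was -0.25 ± 0.08 (adjusted p = 0.6), or -0.10 without number 1. Kif11, the motor that separates the spindle poles, differed by -0.17 ± 0.06 and by -0.13 without number 1. Other Kif11 probe sets gave -0.09, at a mean level of 9.41, and -0.17, at 7.31. Top2a, which untangles sister chromosomes, gave -0.14 ± 0.05 (adjusted p = 0.687) and Kif20a, a motor of cytokinesis, -0.20 ± 0.08. Other Top2a probe sets gave -0.03, at a mean level of 8.08, and 0.03, at a dim 4.23. Birc5, a subunit of the chromosomal passenger complex, gave -0.10 ± 0.06. Mki67, the proliferation antigen that coats mitotic chromosomes, was at -0.06 ± 0.10. Its number 3 array was the highest in all 4 groups, at 12.27 to 12.36, against 11.87 to 12.13 on the other arrays.

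The 7 mitotic cyclins and kinases had a median of -0.12, or -0.04 with numbers 2 and 3 only. Cdk1, the kinase that starts mitosis, read 12.61, 12.27 and 12.28 in alone and 12.21, 12.21 and 12.23 in FAC. It read 12.46, 12.27 and 12.25 in RAW and 12.23, 12.19 and 12.25 in RAW_FAC. Its iron arrays also lay below all the others, but by under 0.001, and number 3 of RAW_FAC and RAW differed by -0.00. The change was -0.13 ± 0.06 (adjusted p = 0.776), or -0.05 without number 1. Its partner cyclin Ccna2 gave -0.12 ± 0.05 (adjusted p = 0.725) and was lower in all 6 pairs. The second Ccna2 probe set, at a mean level of 11.52, gave only -0.04. Aurka, the spindle pole kinase, differed by -0.66 and -0.57 in the number 1 pairs and by -0.05 to 0.00 in the other 4. Aurkb, the passenger kinase, gave -0.09 ± 0.05. Plk1, a kinase acting throughout mitosis, gave -0.12 ± 0.10, with -0.50 and -0.35 in number 1 and 0.35 in number 3 of RAW_FAC. Cdc25c, the phosphatase that activates Cdk1, was nearest to 0 at -0.01 ± 0.07, and 0.12 without number 1. Its second probe set differed from this, at -0.16 on average, -0.18 in FAC against alone and -0.13 in RAW_FAC against RAW.

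All probe sets of these genes were also read. Of 40 probe sets of mitosis genes 37 were lower with iron, including 32 of the 32 above the level of the median gene. Of 50 probe sets of replication genes 23 were lower. Over all genes, each read from 1 probe set, 51.1% were lower with iron. A wider list of 39 other mitosis genes had a median of -0.12, with 37 below 0 and 20 lower in all 6 pairs. The share lower in all 6 pairs was 4.0% of all genes and 5.91% of genes above the median level. The median of the list was -0.26 and -0.23 in the number 1 pairs and -0.13 to -0.06 in the other 4. limma called 0 of the 39 without the block and 1 with it, against 0.791% of all genes with it. That gene was Kif18a, a motor that limits spindle length. Kif18a read 9.41, 9.25 and 9.03 in alone, 8.97, 9.01 and 8.83 in FAC, 9.39, 9.12 and 9.13 in RAW and 8.90, 8.96 and 8.87 in RAW_FAC. All 6 arrays with iron were below all 6 without, as was so for 6 of the 39 genes and 0.264% of all genes. Its change was -0.30 ± 0.05 (SE with the block, adjusted p = 0.0357 in limma), with 0.431 without the block, and -0.21 with numbers 2 and 3 only. A list of 33 other replication genes had a median of 0.01, with 0 called without or with the block. By pair its median was 0.08 and 0.15 in the number 1 pairs and -0.05 to -0.02 in the other 4. The shares of all genes called were 0.00550% and 0.791%.

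Inhibitors and inducers of the cycle were read for comparison. Cdkn1a, the p53-induced inhibitor p21, differed by -0.73 and -0.69 in the number 1 pairs and by -0.02 to 0.31 in the other 4, a mean of -0.17 ± 0.12 (adjusted p = 0.841). Of 20 p53 targets the medians were -0.35 and -0.35 in the number 1 pairs and 0.00 to 0.14 in the others. With the block 1 of these 20 was called, against 0.791% of all genes. It was Gadd45a, a stress-induced growth arrest gene, at 0.45, with a standard error of 0.08 and adjusted p = 0.0283 with the block, and 0.24 and 0.789 without it. Myc, a driver of growth and division, was above 0 in all 6 pairs, at 0.15 ± 0.06 (adjusted p = 0.738). Among the 9 hepatocyte markers 1 was called for iron with the block, against 0.791% of all genes. That gene was Afp, a fetal serum protein. It was higher in all 6 pairs, from 0.18 to 0.75, with a mean of 0.45, a standard error of 0.07 and adjusted p = 0.0168 with the block, and 0.25 and 0.8 without it. Its part in the mitosis values was not tested.

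The iron effect was also read separately without and with macrophages. In FAC against alone the mitosis genes ran from -0.33 to -0.04 with a median of -0.20, or -0.09 with numbers 2 and 3 only. The replication median was 0.00, or -0.03. In RAW_FAC against RAW the mitosis median was -0.12, or -0.04, with 19 of 20 below 0, and the replication median 0.06, or -0.01. In FAC against alone limma called 0 of 44, against 0% of all genes, or 0.0330% with the block. Unadjusted, 5 mitosis genes were lower at p under 0.05, against 1.35% of all genes. In RAW_FAC against RAW it called 0 of 44, against 0%, or 0.0769% with the block. Unadjusted, 2 mitosis genes were lower, against 2.81%, and 1 replication gene higher, against 2.90%. The 2 comparisons share no array. Across the 44 genes their changes correlated at r = 0.877, and at 0.742 within the 20 mitosis genes and 0.799 within the 20 replication genes. Genes are not independent replicates, and both comparisons hold a number 1 pair.

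**Figure D5:**
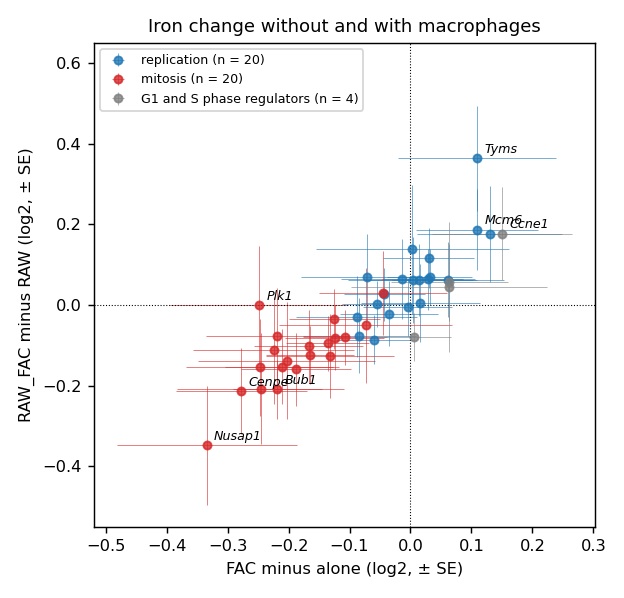
Log2 change with iron without macrophages (horizontal) and with them (vertical) for the 44 genes, with limma standard errors. Of the 20 mitosis genes (red), 19 are below 0 on both axes, and replication genes (blue) lie around 0, with Tyms at 0.11 and 0.36.

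With macrophages the changes of these genes were near 0. Over both iron conditions the 20 mitosis genes had a median change of -0.01, the 20 replication genes -0.01 and all genes 0.01, and the 44 genes ran only from -0.12 to 0.06. limma called 0 of 44, against 0.0110% of all genes without the block and 0.0550% with it. None reached an unadjusted p under 0.05, with or without the block, where 3.94% of all genes did without it. Only Ccne2 was lower in all 6 pairs, at -0.12 ± 0.11 (95% interval -0.36 to 0.13), and only Bub1b higher, at 0.06 ± 0.10, where 4.36% of genes above the median level were lower and 3.73% higher. In RAW against alone 36 of the 44 lay below 0, with a replication median of -0.04 and a mitosis median of -0.04. Of genes above the median level 59.2% lay below 0 there. In each of the 3 pairs 9 of 20 replication and 9 of 20 mitosis genes were lower, by small amounts. The share among genes above the median level was 22.7%, so both classes exceeded it. In RAW_FAC against FAC 31 of the 44 lay above 0, with medians of 0.02 and 0.02, as did 58.0% of genes above the median level. There 2 replication and 6 mitosis genes were higher in each of the 3 pairs, against 1823 of 9097 genes above the median level. For both comparisons limma called 0 of 44, against 0% of all genes, with and without the block. No member had an unadjusted p under 0.05 in either, where 3.81% of all genes did in RAW against alone and 3.15% in RAW_FAC against FAC. The medians of replication and mitosis genes differed by -0.04 to 0.03 in the 6 pairs, number 1 included.

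Iron and macrophages together were set against neither, a comparison that shares its arrays with those above. In RAW_FAC against alone the mitosis median was -0.16, with 20 of 20 below 0, and the replication median 0.02. With numbers 2 and 3 only these were -0.07 and -0.04. limma called 0 of 44, against 0% of all genes without the block and 0.203% with it. Unadjusted, 6 mitosis genes were lower at p under 0.05, against 2.15%. Kif11 had the smallest p, at -0.24 ± 0.09 (adjusted p = 0.956, with the block 0.264). The interaction, the iron change with macrophages minus the change without, had a median of 0.05 for both classes. It was 0.01 for all genes and 0.03 for genes above the median level. limma called 0 of 44, against 0% of all genes with or without the block, and none had an unadjusted p under 0.05, where 2.97% of all genes did. The largest interaction of a mitosis gene was that of Plk1, 0.25 ± 0.21 (95% interval -0.20 to 0.69, adjusted p = 1).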

How the data were processed

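Biotin-labelled total RNA of 12 BNL CL.2 samples was read on a 1-colour array with 45101 probe sets. The authors deposited log2 values made with affy and RMA, per the submitters' processing notes, with versions not given in the sources used here. As commonly run, RMA corrects background, normalizes quantiles and summarises probes, which hides a shift common to all genes. Array medians were 5.63 to 5.68. Array data hold no read depth, and the number of arrays limits the precision. Gene names came from the platform annotation: 34958 probe sets had 1 symbol, 932 several and 9211 none.

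The deposited log2 values were fitted with limma 3.58.1 in R 4.3.3, with 1 mean per group over all 12 arrays, for 8 comparisons, and adjusted by Benjamini-Hochberg over 18194 genes. Standard errors are limma's, and for an average effect of 6 pairs rest on 3 arrays a group. Replicate numbers from the labels pair the samples: deviations from group means correlated at 0.263 to 0.529 in all 18 same-number pairs and at -0.349 to -0.015 in 36 others. The number as an additive block was therefore the alternative fit, and it called no member in any comparison. p-values measure only the spread between these samples, which may be technical. Both fits were tested on simulated data.

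The 45 genes and all lists were chosen with earlier results of these data known. Named were 18 fixed members (17 with a value), every member past the threshold, the 3 members with the smallest p per comparison and direction, and from other lists up to 4 called genes plus Cdkn1a, Rrm2b, Myc and Tfrc. Other genes were named to describe each role, after their values were seen. Alternatives were the block, each array left out, other probe set choices, a filter on dim genes, centring, quantile normalization, limma's trend and robust setting, and, added after seeing the data, arrays numbered 2 and 3 only.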

Additional observations from a re-analysis of the deposited data

Results flagged for a closer look

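Plk1, Mad2l1 and Tpx2 were lower with macrophages in every same-number pair without iron and higher in every pair with iron. Among genes above the median level, 22.7% were lower in every pair without iron and 1823 of 9097 higher in every pair with iron. The share of genes with both patterns was not counted, so 3 of 44 cannot be read as more than other genes show. For Plk1 the change was -0.08 in RAW against alone and 0.16 in RAW_FAC against FAC, a difference of 0.25. For Mad2l1 it was -0.05 and 0.04, a difference of 0.089. For Tpx2, a factor that activates Aurka on the spindle, it was -0.05 and 0.09, a difference of 0.14. limma's interaction term passed for none of the 3 genes, with adjusted p = 1 for Plk1.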

How the results depend on the processing

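No member passed in any of the 8 comparisons with the replicate block, without it, or under any alternative that was run: the count stayed at 0 in 269 combinations of comparison and setting. The medians of replication and mitosis genes moved by less than their spread in 329 such combinations and by more in 1. That was the mitosis median of FAC against alone, -0.0889 with numbers 2 and 3 only against -0.20 with all arrays. The spread was the pooled SD of a class's median level among arrays of a group, number 1 included. It is wide: for the average effect of iron, numbers 2 and 3 only took the mitosis median from -0.15 to -0.06. They took the replication median from 0.03 to -0.03, across 0. Both counted as moving by less than the spread. Counts of replication genes with 1 direction in every same-number pair were small and moved. For genes lower in FAC against alone, 3 as reported, the count was 1 with the probe set of largest SD, 0 with arrays centred and 1 after quantile normalization. For RAW_FAC against RAW the 4 higher became 2 with arrays centred, and the 2 lower became 1 with the mean of all probe sets and 1 after quantile normalization. For the 6 pairs together the 1 higher became 0 with the mean of all probe sets, 0 with genes above the median level only and 2 after quantile normalization. The 1 lower became 0 with the probe set of largest SD, 0 with arrays centred and 0 after quantile normalization. The causes were not tested. The mitosis counts of 16, 11 and 9 held within 1.5 times. Standard errors of 0.04 to 0.11 for the average effect of iron limit what single genes can show.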
